A study of Homo sapiens with 12 samples.

Results

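The genes described are the master regulator of major histocompatibility complex (MHC) class II transcription, the subunits of the factor it works with, the class II invariant chain, and lysosomal enzymes that cut the invariant chain or antigen. The 10 genes listed were CIITA, RFX5, RFXAP, RFXANK, CD74, CTSS, CTSH, CTSB, IFI30 and LGMN. Every probe set that the platform annotation gave to exactly 1 of these symbols was taken, whatever its value. This found 21 probe sets of 9 genes, of 19775 genes with such a probe set on the array; IFI30, a lysosomal thiol reductase, was not analysed here. CTSB had 5 probe sets, CD74, CTSS and CIITA 3 each, RFX5 and RFXAP 2 each, and CTSH, RFXANK and LGMN 1 each.

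Total RNA was measured on 12 Affymetrix H-GU133plus2 arrays in 4 groups of 3: Pfeiffer cells given BCL6 siRNA, Pfeiffer cells given a non-target control, OCI-Ly7 cells given BCL6 siRNA, and OCI-Ly7 cells given a non-target control siRNA. Both are human lines of diffuse large B-cell lymphoma of the germinal centre B-cell (GCB) type, grown in IMDM medium with serum, and RNA was taken 48 h after transient transfection. The control titles of the Pfeiffer arrays read NTshRNA, whereas their descriptions and the design text name an siRNA, so the kind of control used in that line is not settled by the labels. Each group is 1 line, nothing says that its arrays came from separate cultures, and the p-values therefore speak only of the spread among the arrays at hand, which may be technical. Here the question is whether these regulators and processing enzymes changed when BCL6, which represses transcription in germinal centre B cells, was targeted.

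MHC class II molecules present peptides from endosomes to CD4+ T cells, and B cells make them constitutively. CIITA binds no DNA itself; it is recruited to class II promoters by a complex that includes RFX (RFX5, RFXAP and RFXANK), CREB and NF-Y, whose boxes lie together upstream of the class II genes and of CD74. CD74, the invariant chain, occupies the groove of new class II dimers and is degraded in steps by asparagine endopeptidase and cathepsins, of which cathepsin S makes a late cut, before HLA-DM exchanges the last fragment for peptide.

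The RefSeq promoter table (build GRCh38.p14, 250 bases before to 50 after each start) was searched with 1 human chromosome left out. The part searched held 10 promoters of 6 of the listed genes, and all promoter counts here are over that part. A listed gene without a promoter here may thus have one in the whole table. The 4 motifs below were searched on both strands: ATTGG, the inverted CCAAT that NF-Y binds, in 34.6% of the 35116 promoters; GTTGC, a part of the RFX box, in 33.6%; TTCNNAGAA, a BCL6 core, in 4.51%; and an interferon-response core in 3.57%. No motif is contained in another, and matches at different positions were counted separately. The promoters of CD74, CTSH and RFX5 are shown because these genes stand for the invariant chain, the protease with a called change in both lines and the regulators. They are written 5′ to 3′ in the direction of transcription, with matches in capitals.
CD74, chr5:150412861-150413160, minus strand: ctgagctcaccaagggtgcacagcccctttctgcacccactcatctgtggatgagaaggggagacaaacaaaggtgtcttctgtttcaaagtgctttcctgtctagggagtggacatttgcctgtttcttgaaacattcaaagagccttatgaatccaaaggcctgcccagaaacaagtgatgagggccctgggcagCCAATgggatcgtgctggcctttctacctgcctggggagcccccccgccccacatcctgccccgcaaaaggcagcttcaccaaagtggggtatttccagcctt
CTSH, chr15:78944997-78945296, minus strand: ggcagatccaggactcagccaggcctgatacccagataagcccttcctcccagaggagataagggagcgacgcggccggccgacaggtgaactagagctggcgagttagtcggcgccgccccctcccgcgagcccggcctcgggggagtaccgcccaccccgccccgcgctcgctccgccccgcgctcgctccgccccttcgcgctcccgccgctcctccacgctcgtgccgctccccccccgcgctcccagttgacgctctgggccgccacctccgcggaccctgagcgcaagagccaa
RFX5, chr1:151347203-151347502, minus strand: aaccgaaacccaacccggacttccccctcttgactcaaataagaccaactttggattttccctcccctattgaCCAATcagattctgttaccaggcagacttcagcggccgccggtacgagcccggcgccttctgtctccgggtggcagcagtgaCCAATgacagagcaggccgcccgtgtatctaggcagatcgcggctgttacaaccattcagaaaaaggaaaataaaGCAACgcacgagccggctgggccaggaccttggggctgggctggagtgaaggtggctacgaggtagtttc
In CD74 the capitals mark 1 CCAAT, the reverse complement of ATTGG, whose first base lies 53 bases before the start. In this RFX5 promoter they mark 2 CCAAT, first bases 177 and 95 bases before the start, and 1 GCAAC, the reverse complement of GTTGC, 20 bases before it. RFX5 had 3 promoters, and the 1 shown held the most matches. That at chr1:151346950-151347249 held 1 GTTGC and 1 interferon-response core but no ATTGG, and the last held none of the 4 motifs. The CTSH promoter held none of the 4 motifs in this window. None of the 10 promoters held the BCL6 core, and a match or its absence describes these letters only.

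BCL6 itself was measured first. On its brightest probe set BCL6 read 13.11, 13.04 and 12.75 on Pfeiffer siRNA arrays, against 13.86, 13.92 and 14.01 on Pfeiffer control arrays, in log2(signal + 16), the scale of every level and change below. In OCI-Ly7 it read 13.13, 13.10 and 13.15 with BCL6 siRNA, against 13.50, 13.57 and 13.59 with control siRNA. The siRNA arrays lay below the control arrays in both lines. BCL6 fell to 51.3% of control in Pfeiffer (−0.96 ± 0.08, SE; limma adjusted p = 5.31e-07) and to 74.6% in OCI-Ly7 (−0.42 ± 0.08; adjusted p = 0.00731), and the exact two-sided permutation p was 0.1 in each line, the smallest that 3 against 3 arrays allow. The fall was larger in Pfeiffer by 0.54 (limma adjusted p = 0.00496), so the lines are not matched for knockdown. On 215990_s_at BCL6 changed by −1.29 in Pfeiffer and −0.49 in OCI-Ly7, and on 228758_at by −0.97 and −0.17. All siRNA arrays were below the control arrays on these probe sets too, but the size of the fall in OCI-Ly7 depended on the probe set.

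Pfeiffer siRNA replicate 3 stood apart in RNA quality: its 3′ minus 5′ log2 signal of GAPDH was −0.027, against −0.134 to −0.094 on the 5 remaining Pfeiffer arrays, and that of ACTB was 0.388, against 0.278 to 0.308. Each Pfeiffer call of the 9 genes below is also given without this array. On OCI-Ly7 arrays the ACTB value was 0.109 to 0.201, below that of every Pfeiffer array. That of GAPDH was −0.149 to −0.107 there, which overlaps the Pfeiffer arrays. What part this has in the level differences between the lines was not tested. All 5 B cell markers analysed were at or above 7.91, the lowest level at which a gene was tested, in every group, and of the markers of T cells (5), NK cells (3) and myeloid cells (6) none was. Of 3 plasma cell markers 2 were in every group, with summed signals of 33900 to 37400 on Pfeiffer siRNA against 33300 to 35400 on control arrays and 10900 to 12100 on OCI-Ly7 siRNA against 8690 to 11000 on control arrays, and of 3 fibroblast markers at most 1 was. The summed signal of the B cell markers was 29300 to 33400 on Pfeiffer siRNA arrays against 44000 to 44500 on control arrays, and 59300 to 60400 on OCI-Ly7 siRNA arrays against 49500 to 51700 on control arrays. It thus moved the same way as the calls below in each line, and its part in them was not tested. In bulk RNA, fewer cells of a type and less RNA per cell cannot be told apart. The number of arrays, not a read depth, limits the precision.

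All 9 genes passed the filter, which kept 9888 genes by the higher of the line means, each at its brightest probe set. CTSB reached the level of the filter in Pfeiffer alone, and counts that involve OCI-Ly7 are therefore given over the other 8 genes. Levels on Pfeiffer controls were higher than on OCI-Ly7 controls for 6 of these 8 and lower for 2, where 42.5% of all tested genes were called higher and 37.1% lower, so being called here says little about a gene.

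CIITA, the transactivator, averaged 10.15 ± 0.05 in Pfeiffer controls and 7.88 ± 0.36 in OCI-Ly7 controls (SD, n = 3 each), a difference of 2.27 ± 0.17 (SE; limma adjusted p = 6.59e-09). CIITA in OCI-Ly7 thus sat close to the lowest level that was tested. A second CIITA probe set, 211884_s_at, was also called higher, with 7.73 ± 0.23 in Pfeiffer controls and 5.61 ± 0.52 in OCI-Ly7 controls, and 210925_at did not pass the test (6.85 ± 0.26 in Pfeiffer controls and 7.06 ± 0.81 in OCI-Ly7 controls; adjusted p = 0.736). Over all probe sets, which include many dim ones, 19.2% were called higher and 21.3% lower. Of the RFX subunits, RFXANK, the ankyrin-repeat subunit, was 1.25 ± 0.08 higher in Pfeiffer controls, and RFXAP, the third subunit, was 1.36 ± 0.08 lower. RFX5, which binds DNA, was 0.34 ± 0.06 higher on its brightest probe set, but on 202964_s_at it averaged 10.39 ± 0.04 in Pfeiffer controls and 10.43 ± 0.08 in OCI-Ly7 controls, a difference of −0.03 that did not pass (limma adjusted p = 0.832), and with the mean of both probe sets the difference was 0.15 (0.0473). The second RFXAP probe set, 208492_at, was lower too, at −1.73 ± 0.31 (SE; adjusted p = 0.000206). RFXANK and RFXAP thus lay in opposite orders between the lines, and the order of RFX5 depended on the probe set.

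CD74 was 1.07 ± 0.07 higher in Pfeiffer than in OCI-Ly7 controls, at 15.26 ± 0.12 against 14.19 ± 0.07. The size of this difference depended on the probe set: on 1567628_at it was 0.41 ± 0.08, at 11.71 ± 0.15 in Pfeiffer controls and 11.30 ± 0.04 in OCI-Ly7 controls (limma adjusted p = 0.000314), and with the mean of its 3 probe sets it was 0.56 (0.000357). Its main probe set ranked 139 to 205 among the 54675 on Pfeiffer arrays and 358 to 412 on OCI-Ly7 arrays. CTSH, an aminopeptidase-type cathepsin, was 2.48 ± 0.05 higher in Pfeiffer controls, and CTSS, cathepsin S, was 1.22 ± 0.06 higher, with 1.09 on 232617_at and 0.84 on 202901_x_at. LGMN, asparagine endopeptidase, ran the other way, with 8.99 ± 0.20 in Pfeiffer controls and 9.92 ± 0.08 in OCI-Ly7 controls (−0.93 ± 0.14; limma adjusted p = 1.69e-05). CTSB, cathepsin B, read 9.04 ± 0.12 in Pfeiffer controls and 4.63 ± 0.09 in OCI-Ly7 controls, where its mean signal was only 8.74. Without detection calls its level in OCI-Ly7 is best read as dim rather than as a measured fold.

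**Figure D1:**
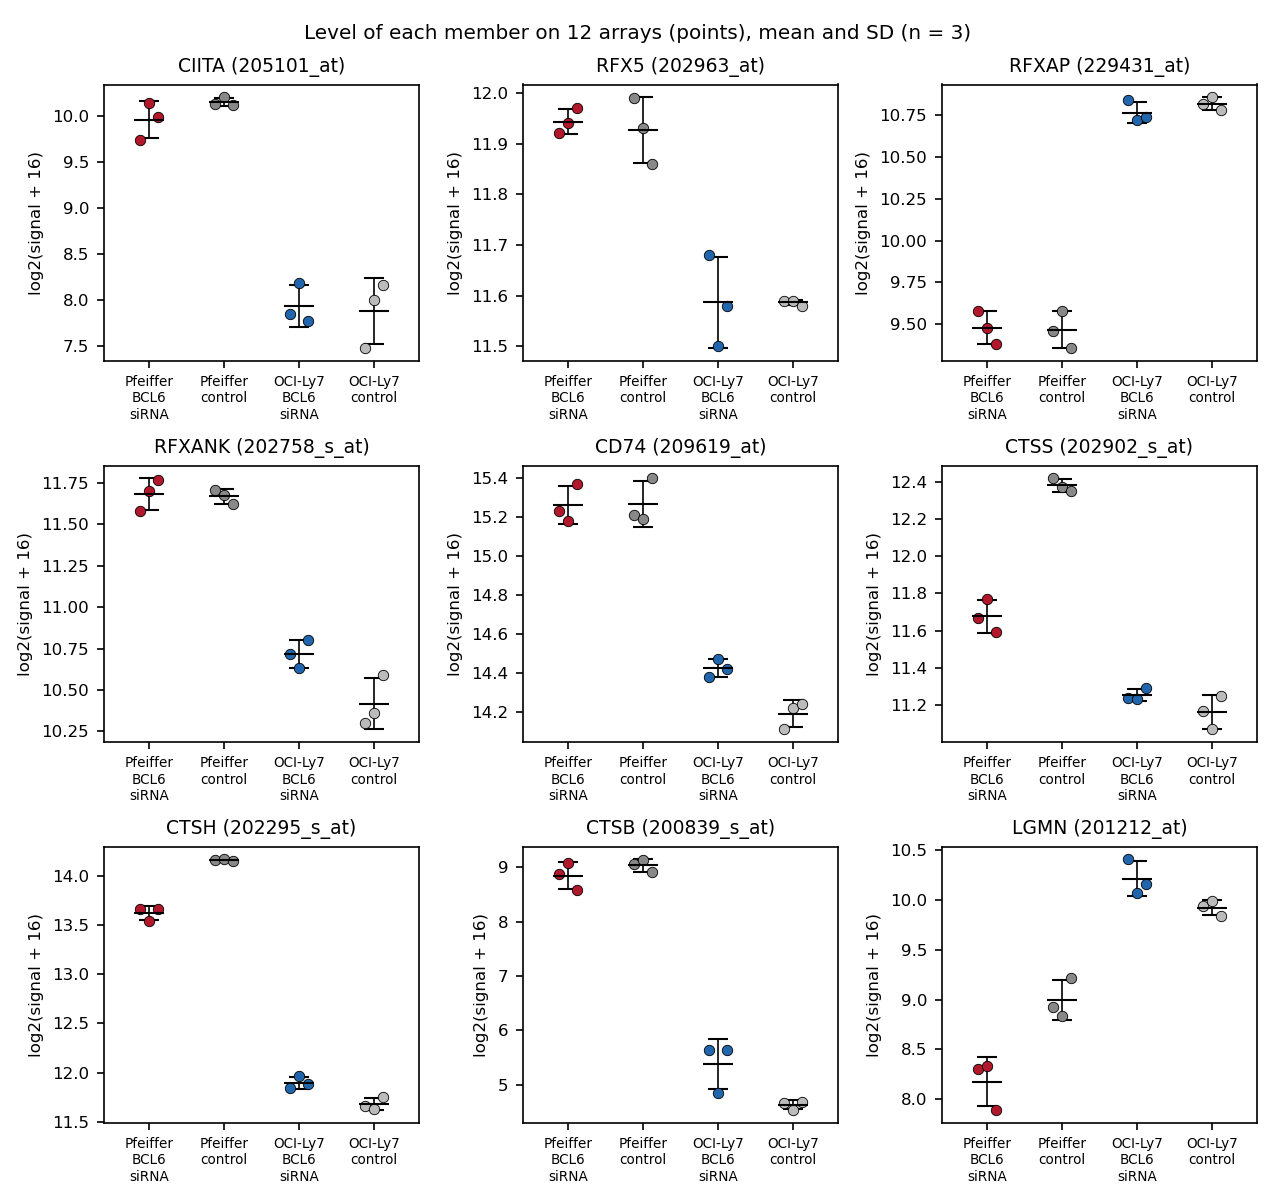
Level of each of the 9 genes on every array, as log2(signal + 16) of its brightest probe set, for Pfeiffer BCL6 siRNA, Pfeiffer control, OCI-Ly7 BCL6 siRNA and OCI-Ly7 control; points are arrays, long bars the means and whiskers the SD (n = 3), and the vertical scale differs between panels. CTSS, CTSH and LGMN show siRNA arrays below all control arrays in Pfeiffer, while the CIITA, RFX5, RFXAP, RFXANK and CD74 arrays of Pfeiffer overlap.

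After BCL6 siRNA in Pfeiffer, 3 of the 4 processing proteases fell and none of the 4 regulators, nor CD74 on its main probe set, passed the test. The 3 were CTSS, CTSH and LGMN, at 56.8% to 68.9% of control. Of the 9 genes 3 were called lower and 0 higher (limma, adjusted p under 0.05), against 8.31% of all tested genes called lower and 7.9% called higher. The median change of the 9 genes was −0.19, beside 0 over all genes tested, and 3 of the 9 had an unadjusted p under 0.05, as had 29.1% of all tested genes.

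CTSS, the protease of the late invariant chain cut in B cells, read 11.67, 11.77 and 11.59 (probe set 202902_s_at) on Pfeiffer siRNA arrays, against 12.42, 12.37 and 12.35 on control arrays. All siRNA arrays lay below all control arrays, as for 16.9% of all tested genes. CTSS fell to 61.1% of control, a change of −0.71 ± 0.06 (SE; limma adjusted p = 1.86e-06; 95% interval −0.84 to −0.58). Without replicate 3 of the siRNA arrays the change was −0.67 (adjusted p = 7.81e-06).

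The other CTSS probe sets can be set beside this. On 232617_at CTSS read 10.31, 10.53 and 10.26 with BCL6 siRNA, against 11.22, 11.35 and 11.35 with control, again without overlap. Its change of −0.94 ± 0.10 passed the test over all 41091 probe sets with 1 symbol (limma adjusted p = 3.97e-05), of which 2.44% were called lower in Pfeiffer, and was −0.89 without siRNA replicate 3 (adjusted p = 0.000265). The third, 202901_x_at, read 10.12, 10.29 and 9.14 with BCL6 siRNA against 10.18, 10.66 and 10.57 with control; here the groups overlapped, and the change of −0.62 ± 0.24 did not pass (adjusted p = 0.208). It rested largely on siRNA replicate 3, without which it was −0.26 (adjusted p = 0.566). Names ending in _s_at or _x_at mark probe sets that can match more than 1 transcript, which holds for the brightest and the third of these but not for 232617_at.

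CTSH, which trims antigens and other proteins in lysosomes, read 13.66, 13.54 and 13.66 on Pfeiffer siRNA arrays, against 14.16, 14.17 and 14.15 on control arrays. The groups did not overlap, and the control arrays were spread over 0.01 (SD). CTSH fell to 68.9% of control (−0.54 ± 0.05, SE; limma adjusted p = 5.21e-06). It had a single probe set, named _s_at, so no other probe set was there to compare. Without siRNA replicate 3 its change was −0.56 (adjusted p = 1.33e-05).

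LGMN, which opens the cleavage of the invariant chain in some antigen presenting cells, read 8.30, 8.33 and 7.89 on Pfeiffer siRNA arrays, against 8.93, 8.83 and 9.22 on control arrays. The groups did not overlap, and siRNA replicate 3 was the lowest array. LGMN fell to 56.8% of control (−0.82 ± 0.14, SE; limma adjusted p = 0.000907), and without that array the change was −0.68 (adjusted p = 0.00301). CTSB, a broad endopeptidase and carboxypeptidase of lysosomes, read 8.87, 9.09 and 8.59 with BCL6 siRNA against 9.06, 9.14 and 8.91 with control. These arrays overlapped, and the change of −0.19 did not pass the test (95% interval −0.76 to 0.38; adjusted p = 0.708). The 4 other CTSB probe sets changed by −0.35 to 0.28 in Pfeiffer, with none called.

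CIITA did not pass the test in Pfeiffer: it read 9.74, 10.14 and 9.98 with BCL6 siRNA, against 10.13, 10.20 and 10.11 with control. The groups overlapped at 1 siRNA array, and the change was −0.19 ± 0.17 (SE; limma adjusted p = 0.515), with a 95% interval of −0.55 to 0.17 that includes falls as large as that of CTSH. The other CIITA probe sets changed by −0.35 (211884_s_at; adjusted p = 0.702) and 0.26 (210925_at; adjusted p = 0.847), both dim. For CIITA these arrays thus bound a fall but do not show that there was none.

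The RFX subunits were bounded more tightly in Pfeiffer. RFX5 read 11.92, 11.94 and 11.97 with BCL6 siRNA against 11.99, 11.93 and 11.86 with control, a change of 0.02 with a 95% interval of −0.10 to 0.14. RFXANK, which bridges RFX to its partners, read 11.58, 11.70 and 11.77 with BCL6 siRNA against 11.71, 11.68 and 11.62 with control, a change of 0.02 (−0.15 to 0.18). RFXAP read 9.58, 9.48 and 9.38 with BCL6 siRNA against 9.46, 9.58 and 9.36 with control, a change of 0.01 (−0.16 to 0.19). On these probe sets, the brightest of each subunit, the siRNA and control arrays overlapped. Their intervals, for these probe sets only, leave out falls of the size of CTSS, CTSH or LGMN.

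A dim RFXAP probe set, 208492_at, gave another picture that rests on 1 array. It read 5.79, 6.29 and 7.33 on Pfeiffer siRNA arrays, against 7.27, 6.64 and 7.16 on control arrays, and its change of −0.56 did not pass (limma adjusted p = 0.426). Without siRNA replicate 3 the change was −0.99 and passed (adjusted p = 0.0302). The second RFX5 probe set, 202964_s_at, changed by −0.03 in Pfeiffer (adjusted p = 0.94).

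The probe sets of CD74 differed from each other in Pfeiffer. On the main probe set, 209619_at, CD74 read 15.23, 15.18 and 15.37 with BCL6 siRNA, against 15.21, 15.19 and 15.40 with control. The arrays of the groups interleaved, and the change was −0.01 ± 0.07 (SE; limma adjusted p = 0.964; 95% interval −0.15 to 0.13). With quantile normalization in place of the deposited scaling it was −0.14 and passed the test (adjusted p = 0.0299).

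On 1567628_at, CD74 read 11.16, 11.33 and 11.35 with BCL6 siRNA, against 11.67, 11.58 and 11.87 with control. All siRNA arrays were lower, and the change of −0.43 ± 0.08 passed the test over all probe sets (limma adjusted p = 0.003; −0.46 and 0.00428 without siRNA replicate 3) but not in a fit without a variance trend (adjusted p = 0.0796). The level of 209619_at minus that of 1567628_at, chosen for description after its values were seen, was 4.07, 3.85 and 4.02 on Pfeiffer siRNA arrays against 3.53, 3.61 and 3.53 on control arrays. The highest level of any probe set on any array was 16.27, above that of CD74. Which transcripts the probe sets match was not looked at, and whether the main probe set was near its upper limit was not tested. The third CD74 probe set, 1567627_at, was dim, at 4.92 ± 0.48 with BCL6 siRNA and 5.05 ± 0.42 with control (SD, n = 3 each).

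**Figure D2:**
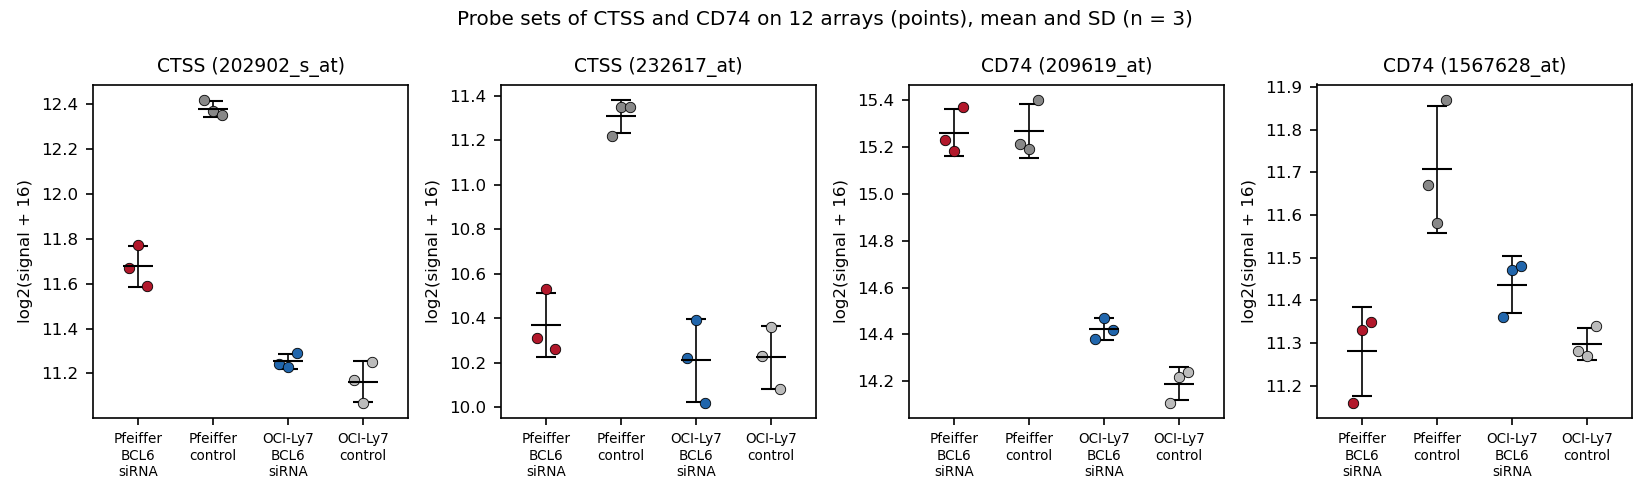
Levels of the brightest and a second probe set of CTSS and of CD74 on the 12 arrays, in log2(signal + 16); points are arrays, long bars means and whiskers the SD (n = 3). Both CTSS probe sets are lower on Pfeiffer siRNA arrays than on Pfeiffer control arrays, whereas CD74 is lower there on 1567628_at and overlaps on 209619_at.

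In OCI-Ly7 1 of the 8 genes, CTSH, was called higher and 0 lower, against 1.69% of all tested genes called higher and 0.991% lower. The median change of the 8 genes was 0.15, beside 0.015 over all genes tested, and 3 of the 8, CD74, CTSH and RFXANK, had an unadjusted p under 0.05, as had 15.5% of all tested genes. For CD74, CTSH, LGMN and RFXANK all siRNA arrays were above all control arrays, which 13.4% of all tested genes also showed.

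CTSH read 11.84, 11.96 and 11.88 on OCI-Ly7 siRNA arrays, against 11.66, 11.63 and 11.75 on control arrays. The groups did not overlap, and CTSH rose to 116% of control (0.21 ± 0.05, SE; limma adjusted p = 0.0424). This call was lost in 9 of the 12 fits that left out 1 array (adjusted p up to 0.144), all but those without OCI-Ly7 control replicate 3, Pfeiffer siRNA replicate 2 or Pfeiffer siRNA replicate 3, and under quantile normalization (0.0503).

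CD74 read 14.38, 14.47 and 14.42 on OCI-Ly7 siRNA arrays, against 14.11, 14.22 and 14.24 on control arrays. The siRNA arrays were all higher, by 0.23 ± 0.07 (SE), and the change did not pass the test (limma adjusted p = 0.08; 95% interval 0.09 to 0.37). It passed under quantile normalization (0.16; adjusted p = 0.0442), with array weights (0.0444), with OCI-Ly7 fitted alone (0.0433) and with the replicate number as a block (0.048). On 1567628_at the change of CD74 was 0.14 (adjusted p = 0.64), in a fit in which 0.455% of all probe sets were called.

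RFXANK read 10.72, 10.63 and 10.80 on OCI-Ly7 siRNA arrays, against 10.30, 10.36 and 10.59 on control arrays. The difference of 0.30 ± 0.08 (SE) did not pass the test (limma adjusted p = 0.0598), and it did without control replicate 3, the highest control array (0.38; adjusted p = 0.0207), and without Pfeiffer siRNA replicate 3, the array that stood apart in RNA quality and enters only through the shared variance (0.30; 0.0464). LGMN read 10.41, 10.07 and 10.16 with BCL6 siRNA against 9.94, 9.99 and 9.84 with control, a change of 0.29 ± 0.14 that did not pass (adjusted p = 0.34). These 2 genes were bounded less tightly than CTSS, which changed by 0.09 (95% interval −0.04 to 0.22), with 11.24, 11.23 and 11.29 on siRNA arrays against 11.17, 11.07 and 11.25 on control arrays.

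CIITA changed by 0.06 in OCI-Ly7 with a wide interval (−0.30 to 0.42), with levels of 7.85, 8.19 and 7.77 on siRNA arrays against 7.48, 8.0 and 8.16 on control arrays. RFX5 read 11.68, 11.50 and 11.58 with BCL6 siRNA against 11.59, 11.59 and 11.58 with control, and its interval was −0.12 to 0.12. RFXAP read 10.84, 10.72 and 10.74 with BCL6 siRNA against 10.82, 10.86 and 10.78 with control, with an interval of −0.23 to 0.12. The arrays of these 3 regulators overlapped, and none passed the test. CTSB read 5.64, 4.85 and 5.64 on siRNA arrays against 4.67, 4.53 and 4.68 on control arrays; although all siRNA arrays were higher, both groups were dim and the change of 0.75 ± 0.27 did not pass (limma adjusted p = 0.176). Of the 12 probe sets besides the brightest ones none passed in OCI-Ly7, and 0 had an unadjusted p under 0.05. They changed by −0.71 to 0.35 for CTSB, 0.14 and 0.57 for CD74, −0.11 and −0.01 for CTSS, −0.10 and 0.47 for CIITA, 0.06 for RFX5 and −0.03 for RFXAP.

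**Figure D3:**
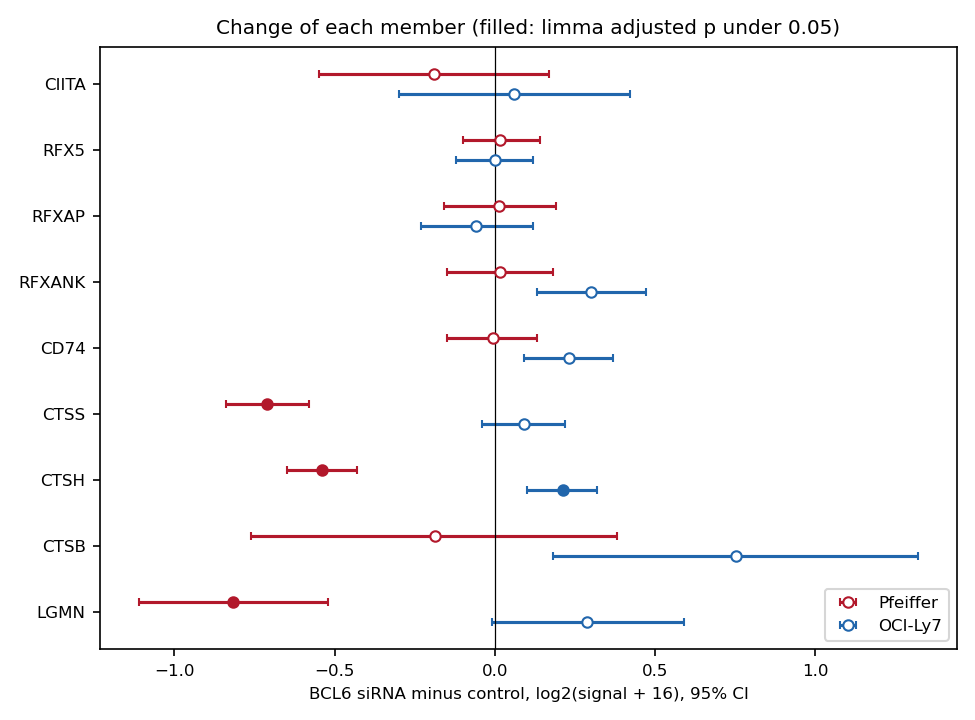
Change of each gene after BCL6 siRNA (BCL6 siRNA minus control, log2(signal + 16)) with its 95% interval from limma, for Pfeiffer (red, upper of each pair) and OCI-Ly7 (blue, lower); filled points had an adjusted p under 0.05. Filled points to the left of 0 are CTSS, CTSH and LGMN in Pfeiffer, and the 1 to the right is CTSH in OCI-Ly7.

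The change itself differed between the lines for CTSS, CTSH and LGMN. The change in Pfeiffer minus the change in OCI-Ly7 was −0.80 ± 0.09 for CTSS (SE; limma interaction contrast, adjusted p = 3.76e-05), −0.75 ± 0.07 for CTSH (adjusted p = 1.5e-05) and −1.11 ± 0.20 for LGMN (adjusted p = 0.00253). Of the 8 genes 3 were called lower in this contrast and 0 higher, against 5.06% of all tested genes called lower and 3.74% higher. The median was −0.27, beside −0.016 over all genes tested. CTSS 232617_at (−0.93; adjusted p = 0.00213) and CD74 1567628_at (−0.57; adjusted p = 0.00949) also differed in the fit of all probe sets, where 1.3% were called lower. Without a variance trend the adjusted p was 0.0675 for CTSS 232617_at and 0.158 for CD74 1567628_at.

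For the regulators no difference between the lines passed. It was −0.25 ± 0.24 for CIITA (SE; 95% interval −0.76 to 0.27), −0.28 ± 0.11 for RFXANK (limma adjusted p = 0.135), 0.02 for RFX5 (−0.15 to 0.19) and 0.07 for RFXAP (−0.18 to 0.32). RFXANK passed without OCI-Ly7 control replicate 3 (−0.37; adjusted p = 0.0416). CD74 on its main probe set differed by −0.24 ± 0.09 (adjusted p = 0.131), and by −0.29 with quantile normalization, which passed (adjusted p = 0.0041). No difference is given here for CTSB, which was dim on the OCI-Ly7 arrays. Those of its other probe sets are listed at the end only where their sign changed with the processing.

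The class II chains, whose promoters the regulators serve, were set beside these genes. Of 10 tested chains 6 fell in Pfeiffer and 0 rose, with a median change of −0.46, where 8.31% of all tested genes were called lower and 7.9% higher. They were HLA-DMB (−0.95 ± 0.15, SE; limma adjusted p = 0.000408), HLA-DMA (−0.51 ± 0.05; 4.42e-06), HLA-DQA1 (−0.49 ± 0.07; 0.000224), HLA-DPB1 (−0.44 ± 0.06; 0.00021), HLA-DQB1 (−0.47; 0.00099) and HLA-DOB (−0.47; 0.00159). HLA-DRA, HLA-DPA1, HLA-DRB1 and HLA-DOA did not pass, with changes of 0.01, 0.04, −0.09 and −0.23. In OCI-Ly7 2 chains rose, HLA-DRB1 (0.38; adjusted p = 0.00231) and HLA-DMA (0.24; 0.0164), and 0 fell, with a median of 0.22, where 1.69% of all tested genes were called higher and 0.991% lower. HLA-DMA and HLA-DMB, the chains of the peptide exchanger, thus stood with CTSS, CTSH and LGMN among the genes lower in Pfeiffer. HLA-DRA and HLA-DPA1 stood with CD74 on its main probe set. On Pfeiffer controls HLA-DRA, HLA-DPA1 and CD74 averaged 15.59, 15.27 and 15.26. The 6 chains that fell ran there from 8.49 (HLA-DOB) to 14.8 (HLA-DPB1), HLA-DRB1 read 14.95 and HLA-DOA 10.95. On its less bright probe set 1567628_at CD74 changed by −0.43. Whether the brightest probe sets understate a change was not tested.

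**Figure D4:**
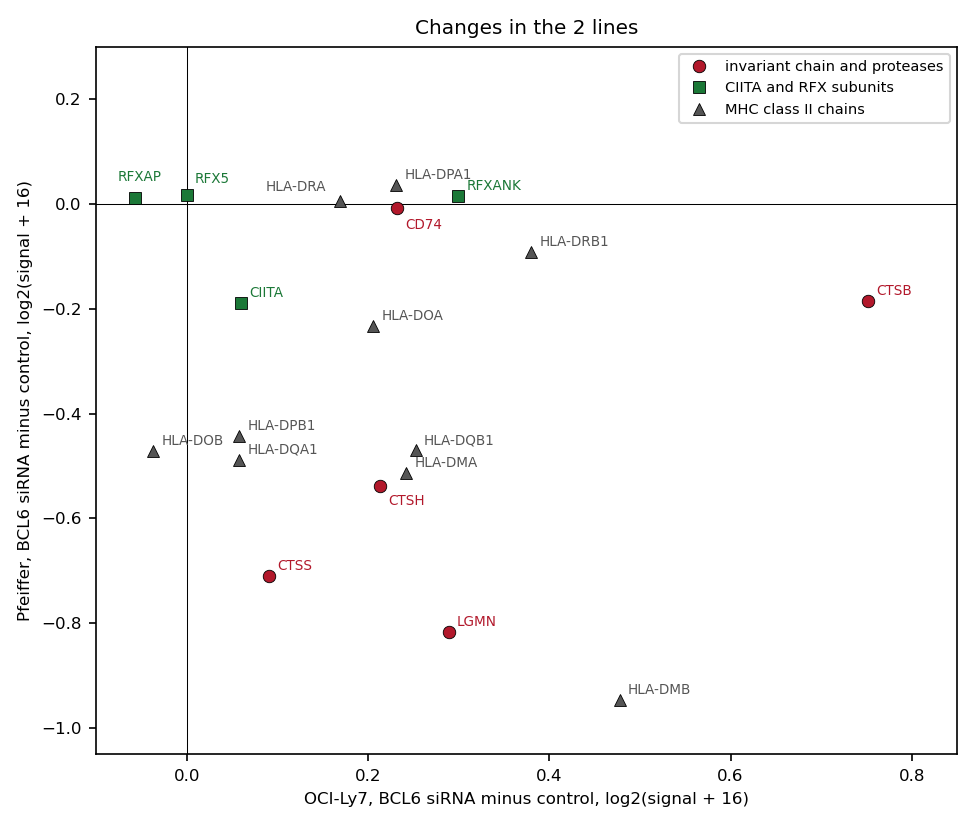
Change after BCL6 siRNA in Pfeiffer (vertical) against that in OCI-Ly7 (horizontal), both BCL6 siRNA minus control in log2(signal + 16), for the invariant chain and proteases (circles), CIITA and the RFX subunits (squares) and the 10 class II chains (triangles). CTSS, CTSH, LGMN and 6 class II chains lie at −0.44 or below on the vertical axis, while RFX5, RFXAP, RFXANK and CD74 lie near 0 on it.

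Other factors of the class II promoter and its coactivators mostly did not pass: of 9 tested in Pfeiffer 1 rose and 2 fell, with a median of −0.09, where 7.9% of all tested genes were called higher and 8.31% lower, so these small counts say little about the list. The acetyltransferase KAT2B rose by 0.62 ± 0.09 (SE; limma adjusted p = 0.000142), the acetyltransferase CREBBP fell by 0.21 (0.0231), and the arginine methyltransferase CARM1 fell by 0.34 (0.0287). The NF-Y subunits NFYA, NFYB and NFYC and the factor CREB1 did not pass in either line. In OCI-Ly7 0 of the 9 passed limma's test, with a median of 0.02, where 1.69% of all tested genes were called higher and 0.991% lower. There 2 of the 9 had an unadjusted p under 0.05, as had 15.5% of all tested genes.

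Of factors known to act on CIITA transcription, 8 of 9 were analysed. In Pfeiffer PRDM1, a repressor of CIITA in plasma cell differentiation, rose by 1.40 ± 0.11 (SE; limma adjusted p = 3.94e-07) and IRF4 rose by 0.82 ± 0.10 (3.98e-05). Among B cell transcription factors SPIB fell by 1.66 ± 0.09 (2e-08), PAX5 by 0.53 (0.00733), IRF8 by 0.38 (0.000308) and TCF3 by 0.30 (0.00152), while SPI1 and IRF1 did not pass. In all 2 of the 8 rose and 4 fell, beside 7.9% of all tested genes called higher and 8.31% lower. PRDM1 averaged 12.12 ± 0.08 with BCL6 siRNA and 10.72 ± 0.05 with control in Pfeiffer (SD, n = 3 each). In OCI-Ly7 it averaged 8.21 ± 0.13 with BCL6 siRNA and 7.74 ± 0.19 with control (SD, n = 3 each). It was the 1 factor of the 8 to pass there (0.47, limma adjusted p = 0.0294). Of all tested genes 1.69% were called higher and 0.991% lower in OCI-Ly7. These factors thus passed in Pfeiffer on arrays on which CIITA itself, at −0.19 ± 0.17, did not.

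Other lysosomal proteases did not all go with CTSS, CTSH and LGMN. Of 13 listed 9 were tested, and in Pfeiffer 2 fell and 0 rose, with a median of −0.24, again beside 8.31% of all tested genes called lower. NAPSB, annotated as a pseudogene of an aspartic protease, averaged 9.30 ± 0.28 with BCL6 siRNA and 11.76 ± 0.09 with control (SD, n = 3 each), a change of −2.46 ± 0.15 (SE; limma adjusted p = 4e-08). TPP1, a tripeptidyl peptidase, fell by 0.37 ± 0.07 (0.00247). CTSC, which activates serine proteases, changed by −0.02 (adjusted p = 0.894) and CTSA, a carboxypeptidase, by −0.23 (0.0711). In OCI-Ly7 0 of the 9 passed limma's test, with a median of 0.05, where 1.69% of all tested genes were called higher and 0.991% lower. There 2 of the 9 had an unadjusted p under 0.05, as had 15.5% of all tested genes. A further list held protease inhibitors and genes of late processing. The inhibitor CSTB, which blocks cysteine cathepsins, changed by 0.00 in Pfeiffer. SPPL2A, a late processing gene that clears the last membrane-bound piece of CD74, changed there by 0.11 (limma adjusted p = 0.224). Of the 6 genes tested in that list HLA-DMA and HLA-DMB alone passed in Pfeiffer, both lower, with a median of −0.11. In OCI-Ly7 HLA-DMA alone passed, higher, with a median of 0.12. Of all tested genes 8.31% were called lower in Pfeiffer and 1.69% higher in OCI-Ly7. These are the same calls of HLA-DMA and HLA-DMB already counted among the class II chains, not further ones.

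The genes whose levels followed those of CD74, CTSS and CIITA over the 12 arrays were taken by the smallest root mean square difference between profiles centred on their own means, a description in which the difference between the lines counts beside the changes. For CD74 these were HLA-DPA1 (0.052), HLA-DRA (0.061), SRP14 (0.07) and MRPL14 (0.071), where the median over all tested genes was 0.567. The nearest to CD74 on its main probe set were 2 chains of class II dimers, with SRP14 and MRPL14 almost as near. For CTSS they were GIT2 (0.111), UVRAG (0.114), TRPM4 (0.123) and IGLV1-44 (0.134), with a median of 0.572, and for CIITA NEU1 (0.153), AAGAB (0.181), IFI35 (0.182) and CAMK2N1 (0.187), with a median of 1.093. None of the other genes described here was among the 4 nearest to CTSS or CIITA.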

How the data were processed

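The authors deposited 1 log2 value per probe set and array, made with MAS5 and affy per the submitters' processing notes (versions not given in the sources used here). Turned back to signals, each array had a mean of 500 after trimming 2% at either end, so the deposited log2 values had already been scaled and were not normalized again. No detection calls were used, and MAS5 makes dim probe sets noisy. Median signals were 71.3 to 85. Of the 54675 probe sets on the array, 41091 carried 1 symbol in the platform annotation and were used, while 1801 had several. Signals were taken to log2(signal + 16), which understates changes of dim genes.

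Each gene was represented by its brightest probe set over all arrays, and the upper 0.5 by the higher line mean was tested. limma (lmFit, eBayes with trend) was fitted to 4 group means over all 12 arrays, two-sided, with Benjamini-Hochberg adjustment over all 9888 genes, or over all 41091 probe sets without a filter for the other probe sets, and a threshold of 0.05. The fit was tested on simulated data. Percent of control is taken on the log2(signal + 16) scale. The genes, lists, motifs and tests were chosen with earlier results of these data known. Named are all listed genes, BCL6, in each list up to 4 genes of lowest p in a line and those a sentence turns on, and for CD74, CTSS and CIITA the 4 genes most alike. Same-numbered siRNA and control arrays correlated at −0.08 to 0.083 in their deviations from group means, so the numbers were not taken as pairs. Tried besides were pseudocounts of 1 and 64, quantile normalization, other filters and rules for several probe sets, a 2-fold minimum, limma per line, with a replicate block, with array weights or without trend, and fits that each left out 1 array. The labels name no batch or scan date, so no batch was tested. Fits were run in R 4.3.3 with limma 3.58.1 and the data.table package (version 1.17.8), and tables and plots in Python 3.11.15 with pandas 2.3.3, numpy 2.4.6 and matplotlib 3.10.9.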

Additional observations from a re-analysis of the deposited data

Results flagged for a closer look

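For the following the change after BCL6 siRNA differed between the lines by limma's interaction contrast (Pfeiffer change minus OCI-Ly7 change, log2(signal + 16)): BCL6 at −0.54, CTSH at −0.75, CTSS at −0.80 and LGMN at −1.11. CTSS and LGMN were lower in Pfeiffer and did not pass in OCI-Ly7, and CTSH was lower in Pfeiffer and higher in OCI-Ly7. This rise of CTSH in OCI-Ly7 was called in only 7 of the 22 alternative fits that gave a value. Over all probe sets the contrast was −0.57 for CD74 probe set 1567628_at and −0.93 for CTSS probe set 232617_at. The knockdown of BCL6 and the lines' own levels of these genes differed too, and their part in these differences was not tested.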

How the results depend on the processing

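CTSS, CTSH and LGMN were called lower in Pfeiffer under every alternative that gave a value except a 2-fold minimum, at −0.94 to −0.67, −0.56 to −0.50 and −0.90 to −0.68. That minimum left 0 of the 9 genes called in Pfeiffer, 0 in OCI-Ly7 and 1 for the difference. The OCI-Ly7 member count, 1 in the fit reported, was 0 with no filter on dim genes, with the mean of all probe sets, without _s_at and _x_at probe sets and without a trend, 2 with a stricter filter, 3 with array weights, and 0 to 2 with 1 array left out. CTSH in OCI-Ly7 was not past the threshold with no filter (adjusted p = 0.0805), the mean of probe sets (0.06), no trend (0.122), or OCI-Ly7 alone (0.0649). RFXANK passed there with a stricter filter (0.0402) and with array weights (0.0184). With the replicate number as a block CTSH lost its call in OCI-Ly7 (0.109) and CD74 gained one (0.048), with 1, 3 and 3 of the genes called in OCI-Ly7, Pfeiffer and the difference. Among all genes, the 265 called in OCI-Ly7 became 164 with no filter, 115 with the mean of probe sets, 169 without _s_at and _x_at probe sets, 142 without a trend, 139 with the replicate block, 22 with a 2-fold minimum and 101 to 337 with 1 array left out. The 1603 in Pfeiffer became 1006 with the mean of probe sets and 93 at 2-fold; the 870 of the difference became 518, 572 without _s_at and _x_at probe sets, and 108 at 2-fold. The 7867 of the controls became 4205 with a stricter filter and 3469 at 2-fold.

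Sign changes occurred only among changes that passed in neither setting. With the mean of probe sets CTSS in OCI-Ly7 was −0.01, as without _s_at and _x_at probe sets, RFX5 was −0.01 in Pfeiffer, 0.03 in OCI-Ly7 and −0.04 for the difference, and RFXAP was −0.27 in Pfeiffer and −0.23 for the difference. With array weights RFX5 was 0.01 in OCI-Ly7 and −0.01 for the difference, and RFXANK was 0.00 in Pfeiffer. The difference of CTSB 213274_s_at was 0.05 with a pseudocount of 1, and that of CTSB 227961_at 0.01 with one of 64. With 1 array left out, the Pfeiffer change ranged over −0.06 to 0.06 for CD74, −0.02 to 0.05 for RFX5, −0.03 to 0.07 for RFXANK, −0.04 to 0.07 for RFXAP, −0.32 to 0.14 for CD74 1567627_at and −0.11 to 0.08 for RFX5 202964_s_at. In OCI-Ly7 it ranged over −0.14 to 0.20 for CIITA, −0.05 to 0.04 for RFX5, −0.33 to 0.46 for CTSB 200838_at, −0.28 to 0.02 for CTSS 202901_x_at, −0.14 to 0.05 for RFXAP 208492_at, −0.57 to 0.15 for CIITA 210925_at, −0.63 to 0.09 for CTSB 213274_s_at and −0.10 to 0.08 for CTSS 232617_at. The difference of the changes ranged over −0.03 to 0.06 for RFX5, −0.69 to 0.10 for CTSB 200838_at, −0.16 to 0.03 for RFX5 202964_s_at, −0.44 to 0.28 for CTSB 213274_s_at, −0.06 to 0.87 for CTSB 213275_x_at and −0.37 to 0.23 for CTSB 227961_at. Between controls it ranged over −0.03 to 0.52 for CD74 1567627_at and −0.68 to 0.04 for CIITA 210925_at. The cause of these moves was not tested. Under the replicate block and the fit per line the controls of the lines could not be compared, and the difference could not be had per line. RFXANK and CTSH had no value without _s_at probe sets. Dim probe sets, most of those of CTSB and those of CIITA in OCI-Ly7, limit what can be seen.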
